A study of Mus musculus with 16 samples.

Results

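Concanavalin A is a plant lectin that activates T cells when it is injected into mice, and the liver then becomes inflamed within hours. Interferon-γ switches on genes of antigen presentation and antiviral defence, interleukin-6 signals through STAT3 in hepatocytes to drive acute phase proteins, and tumour necrosis factor acts on hepatocytes and sinusoidal endothelium. The liver also carries out gluconeogenesis, lipid synthesis and bile formation, and many of its genes follow the circadian clock.

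The question here was how the liver's transcripts differed 5 h after concanavalin A from those 2 h after it, in mice that received no stem cells. The comparison holds 6 of the 16 samples of the series. All 6 were livers of female C57Bl/6 mice, and each mouse had been given 300 µg of concanavalin A. Mice No. 11, 12 and 13 were sampled at 2 h and mice No. 4, 5 and 6 at 5 h. The other 6 livers came from mice given the same lectin dose and 100000 adipose tissue-derived stem cells, either at 0 h (mice 8, 9 and 10, sampled at 2 h) or at 3 h (mice 1, 2 and 3, sampled at 5 h). They entered the fit to estimate the spread and are set beside the main comparison at the end. The last samples were hepatic inflammatory cells. Livers of mice without concanavalin A were not analysed here, so each difference is between the 2 times and not from an uninjured liver. The labels give neither the age of the mice nor the hour of day at which they were killed.

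Each liver was hybridised to a single-colour Agilent mouse array with 41174 probes, and a level below is the log2 processed signal minus the array's 75th percentile, so that 0 marks that percentile. Between 54.2% and 60.3% of probes were well above background in the 6 livers. Albumin stood at 9.85, 10.29 and 10.01 at 2 h and at 10.52, 10.08 and 10.09 at 5 h, and Apoa1, Ttr and Cps1 were well above background on every one of the 6 arrays, as the tissue label has it. Each of 3 slides held 1 liver of each time (mice 12 and 4, 11 and 5, 13 and 6). The 2 h livers were all at position 1 of their slide and the 5 h livers at position 3 or 4, so position and time cannot be told apart. In whole liver, fewer cells of a type and less RNA per cell cannot be told apart.

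Mouse 13 stood apart from the other 2 h livers. In it, 17.3% of 14235 genes lay more than 2-fold from the mean of the other two livers of its time, against 9.90% in mouse 11, 7.12% in mouse 12 and 2.75% to 5.14% in the 5 h livers. On the first principal component, which held 59.4% of the variance of the 6 livers, mouse 13 lay at -100.1, mice 11 and 12 at -4.15 and -19.5, and the 5 h livers between 38.4 and 43.6. Several genes that the lectin is known to induce were low in this liver. Cxcl10, the ligand that draws CXCR3-bearing T cells, stood at 9.52 and 9.65 in mice 11 and 12 and at 2.22 in mouse 13. Saa1, an acute phase apolipoprotein, stood at 9.78, 10.15 and 4.69, and Il6 at 1.24, 0.43 and -5.00. Among the livers with stem cells at 2 h, mouse 10 was the lowest for these genes, with Cxcl10 at 3.75 (8.69 and 9.07 in mice 8 and 9), Saa1 at 4.54 (9.03 and 9.23) and Il6 at -0.65 (1.05 and 1.54). Results are therefore given with and without mouse 13, and the comparison with treated livers also without mice 10 and 13.

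At 5 h, 937 of 14235 tested genes were higher (6.58%) and 1354 were lower (9.51%), 16.1% in either direction, by limma's moderated test at a Benjamini-Hochberg adjusted p of 0.05 over all genes. The median change of all genes was -0.08, that of the genes that rose 0.92 and that of the genes that fell -1.0. Changes of at least 1 on the log2 scale were called for 405 higher and 682 lower genes. An unadjusted p below 0.05 was found with limma for 4654 genes (32.7%). Counts of list members below are to be read against the shares over all genes. The 2 groups of livers did not overlap for 5130 genes (36%). Of the 2291 genes called, 2282 had the same direction within all 3 slides, as did 53.8% of all genes tested. For 2277 of the called genes the 2 groups did not overlap, which fixes the direction within slides. The agreement of slides, and the lack of overlap of called genes named below, is therefore no separate support for the calls. Without mouse 13, 598 genes were higher (4.2%) and 820 lower (5.76%), and 1245 of these 1418 were among the 2291 in the same direction. With mouse 4 left out the counts were 357 and 566, with mouse 6 left out 376 and 550, and with mouse 12 left out 902 for the lower genes. A fit to the 6 livers alone called 108 and 244, and another background correction, normexp, 149 and 172.

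**Figure D1:**
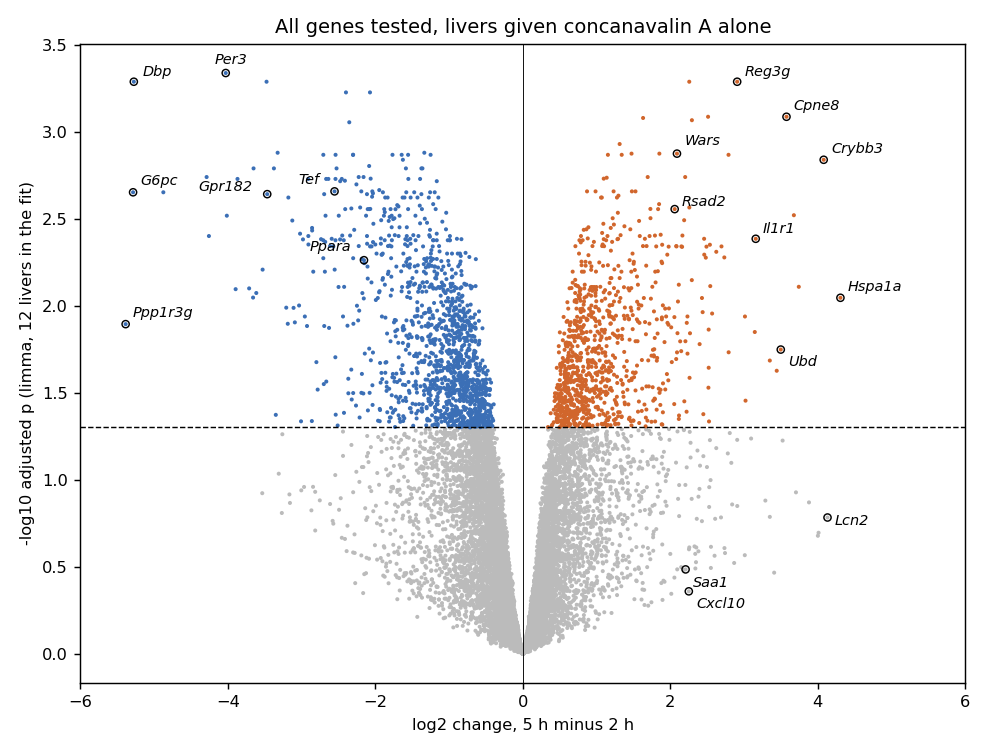
Change from 2 h to 5 h (x axis, log2, 5 h minus 2 h) against the adjusted p of limma's test (y axis, minus log10) for each of 14235 genes in livers given concanavalin A alone; genes past the threshold (dashed line) are coloured by direction. More genes lay past the threshold on the lower side (1354) than on the higher side (937), and the largest falls, of Ppp1r3g, G6pc and Dbp, exceeded the largest rise past the threshold, of Hspa1a.

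The 3 largest falls were in Ppp1r3g, G6pc and Dbp. Ppp1r3g, a subunit that directs protein phosphatase 1 to glycogen, stood at 1.37, -0.12 and 2.46 in mice 11, 12 and 13 and at -2.26, -6.77 and -3.41 in mice 4, 5 and 6. It was well above background on only 2 of the 5 h arrays. G6pc, the catalytic subunit of glucose-6-phosphatase, which releases glucose from the liver, stood at 3.40, 3.28 and 6.12 at 2 h and at -0.75, -1.62 and -0.68 at 5 h. Dbp, a clock-controlled transcription factor, stood at 5.08, 4.90 and 5.52 and then at -0.65, 0.65 and -0.32. The 3 genes were chosen among called genes whose times did not overlap, so every 2 h liver lay above every 5 h liver. They fell by 5.39 ± 1.12 (SE), 5.28 ± 0.67 and 5.27 ± 0.43 on the log2 scale, with 3 livers at each time and limma adjusted p of 0.0127, 0.00222 and 0.000515. Without mouse 13 the changes were -4.77, -4.36 and -5.10, all past the threshold.

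Next in size were the following falls. Pcdh12, an endothelial protocadherin, fell by 4.26 ± 0.64, and Pth1r, the parathyroid hormone receptor, fell by 3.89 ± 0.72. Fam13a fell by 3.65 ± 0.42 and the unnamed locus 4931408D14Rik by 3.87 ± 0.46. Pcdh12 and 4931408D14Rik were well above background on only 1 of the 5 h arrays and Pth1r on 2, so these sizes rest partly on values near the floor. A further 8 of the 15 largest falls had no 5 h array well above background, so only a bound can be given. The endothelial gene Exoc3l2 was at least 5.25-fold lower, Gucy1a1, a subunit of the nitric oxide receptor guanylate cyclase, at least 6.86-fold, the lectin gene Clec2h at least 8.64-fold and Fam171b at least 4.93-fold. For Gas1, Ranbp3l, Kcnj10 and Per3 the bounds were 3.35-fold, 3.42-fold, 2.96-fold and 3.42-fold. All 15 passed the threshold whichever 1 of the 6 livers was left out.

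Among the rises, Hspa1a, an inducible Hsp70, went from -0.13, -0.87 and -2.47 to 4.63, 2.00 and 2.82, a change of 4.31 ± 0.81 (19.8-fold, adjusted p = 0.00899). Crybb3, a lens crystallin gene, stood at -0.84, -0.81 and -2.15 at 2 h and at 3.73, 2.01 and 2.70 at 5 h (4.08 ± 0.45, adjusted p = 0.00145). For Cpne8, a calcium-dependent phospholipid-binding protein, the levels were -1.32, -1.32 and -2.23 and then 2.39, 1.34 and 2.12 (3.58 ± 0.33, adjusted p = 0.000819). In these 3 genes the lowest 5 h liver was mouse 5 and the highest was mouse 4. No 2 h liver reached either, as the rule that chose these genes required.

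Il1r1, the signalling receptor of interleukin-1, stood at 2.92, 2.98 and 0.78 at 2 h and at 5.31, 5.40 and 5.45 at 5 h (3.16 ± 0.48). Syt12, a synaptotagmin, rose by 3.74 ± 0.68 and Arrdc4, an arrestin-like protein that responds to glucose, by 2.79 ± 0.30. A2m, an acute phase protease inhibitor, was not well above background on any 2 h array and was at least 10.7-fold higher at 5 h. Reg3g, a secreted C-type lectin with antibacterial activity, was at least 1.80-fold higher on the same terms. Ubd, a ubiquitin-like modifier, rose by 3.50 ± 0.79, Ptgs2, the inducible cyclooxygenase, by 3.35 ± 0.79 and Slfn4 by 2.79 ± 0.64. These last 3 did not pass without mouse 4 (changes of 3.35, 3.40 and 2.84) or without mouse 6 (3.54, 3.42 and 2.59). Steap1 (3.02 ± 0.83) was lost without mouse 13 (1.96), 4 (2.90), 5 (3.11) or 6 (3.05), and with slide as a block. Bhlha15 (3.44 ± 0.84) was lost without mouse 11 (2.88), 12 (3.37), 4 (2.93) or 6 (3.07), and 1 of its 2 probes had the opposite sign.

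**Figure D2:**
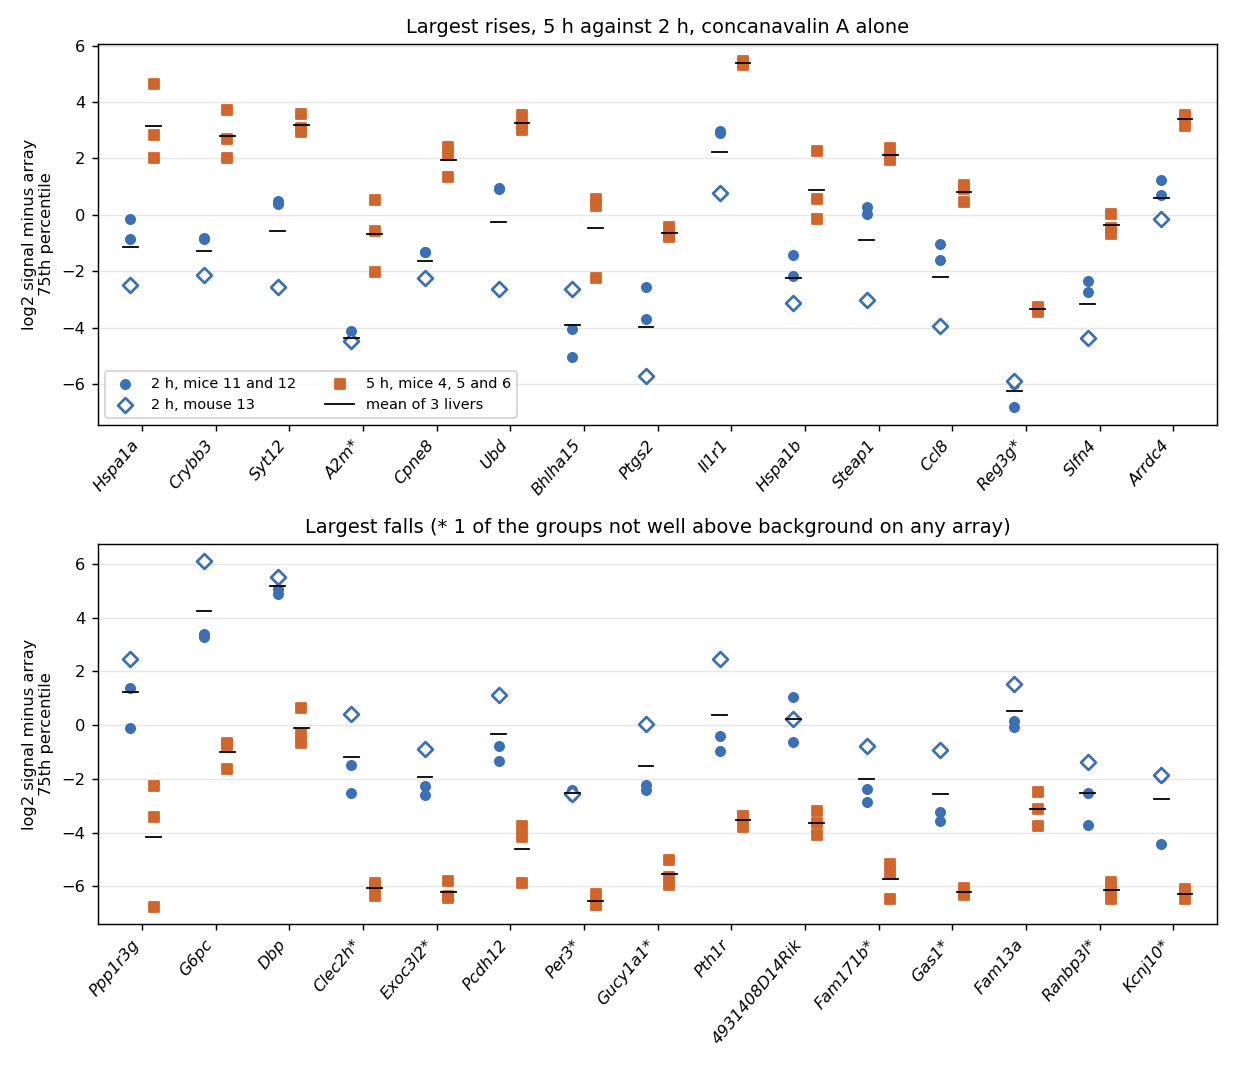
Levels (y axis, log2 signal minus the array's 75th percentile) of the 15 genes with the largest rise (one panel) and the 15 with the largest fall (the other) in each liver, with 2 h and 5 h livers in different colours mouse 13 as an open diamond, bars at the mean of 3 livers and an asterisk on genes not well above background at one time. Mouse 13 was the lowest 2 h liver for 12 of the 15 rises and the highest for 13 of the 15 falls; these genes were chosen by their change, which includes this liver.

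Across all 2291 genes called, mouse 13 was the 2 h liver farthest from the 5 h livers in 71.6%. The calls used the values of this liver, and the share over all tested genes was not computed. Of 153 genes chosen by fixed rules (these 30, the leading members of 44 gene lists and a panel of 16), 122 passed the threshold, and 62 of these passed whichever 1 of the 6 livers was left out. In a fit to the 6 livers alone 85 of the 122 did not pass, and with normexp 76 did not. With slide as a block over the 12 livers, 12 of the 122 did not pass and 2 further genes did; they are named where they are described.

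Interferon effectors were the list with the largest share of rising members. Of 29 tested type I interferon effectors, 21 were higher at 5 h and none lower (6.58% of all genes were higher), with a median change of 1.56 against -0.08 over all genes. Isg15, a ubiquitin-like protein that is attached to viral and host proteins, stood at 3.79, 3.60 and 2.10 at 2 h and at 6.19, 5.30 and 5.38 at 5 h. Ifit2, which binds viral RNA, stood at 1.18, 0.10 and -1.17 and then at 2.78, 2.47 and 2.48. Herc6, the mouse ligase that attaches Isg15, stood at -0.11, -0.96 and -1.73 and then at 1.87, 1.24 and 1.47. The 2 times did not overlap for any of these, and they rose by 2.46 ± 0.40, 2.54 ± 0.46 and 2.46 ± 0.37. Median changes of the list were 1.19, 0.77 and 2.46 within slides 1, 2 and 3. It was 1.12 without mouse 13, with 19 members higher; without mouse 4 there were 10 and without mouse 6 there were 11.

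The promoters of 3 members of this list are printed to show the interferon-stimulated response element, the site through which interferons act on such genes. They are the 150 bases before the RefSeq start on GRCm38.p6, 5′ to 3′ along the gene, with matches on either strand to GAAA, any 2 bases and GAAA again in capitals. Rsad2 (viperin) lies at chr12:26456453-26456602 on the minus strand, Isg15 at chr4:156200819-156200968 on the minus strand and Ifit1 at chr19:34640739-34640888 on the plus strand.
Rsad2: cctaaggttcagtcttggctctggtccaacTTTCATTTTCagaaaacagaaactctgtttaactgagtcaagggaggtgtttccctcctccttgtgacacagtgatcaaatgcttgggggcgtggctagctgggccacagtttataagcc
Isg15: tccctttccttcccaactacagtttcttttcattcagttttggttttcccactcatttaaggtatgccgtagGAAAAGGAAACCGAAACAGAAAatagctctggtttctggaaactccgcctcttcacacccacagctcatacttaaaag
Ifit1: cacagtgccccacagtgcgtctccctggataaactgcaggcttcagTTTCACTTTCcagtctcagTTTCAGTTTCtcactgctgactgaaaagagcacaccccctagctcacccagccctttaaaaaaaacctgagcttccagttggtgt
The capitals in Isg15 are 3 overlapping matches. The only kept probe of Isg15 is placed by the array design at chr17:45870420-45870479, not on the chromosome of this promoter. The motif was found in 48% of 25 windows of the list and in 3.19% of 14075 windows of all tested genes. These genes and those printed further on were chosen after the matches were seen.

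Genes that interferon-γ induces most strongly divided the 2 h livers. None of 15 tested interferon-inducible GTPases passed the threshold with limma, though 10 were higher at an unadjusted p below 0.05. Their median change was 2.11, made up of 0.94, 0.75 and 4.78 within slides 1, 2 and 3, and it was 0.81 without mouse 13. Leaving out mouse 13 or 12 gave 1 member higher and leaving out mouse 11 gave 3. Igtp stood at 6.94, 6.97 and 4.64 at 2 h and at 8.11, 7.79 and 7.79 at 5 h, and Gbp9 at 2.62, 2.08 and -1.77 and then at 3.94, 3.85 and 3.86. In both, mouse 13 was more than 2 log2 units below the other 2 h livers, and the times did not overlap. Of 10 windows of this list, 80% held the response element.

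Of 14 genes of the immunoproteasome and class I loading, 6 rose and none fell. Psmb8, a catalytic subunit of the immunoproteasome, stood at 3.74, 3.83 and 3.47 at 2 h and at 5.02, 4.63 and 4.65 at 5 h, and rose by 1.08 ± 0.17. Psmb9, its partner, changed by 1.36 ± 0.36, a call lost without mouse 13 (0.93), 4 (1.27), 5 (1.33) or 6 (1.47). Tapbpl, a peptide editor, changed by 1.48 ± 0.37, a call lost without mouse 4 (1.35) or 6 (1.51). The number higher was 3 when mouse 13, 5 or 6 was left out and 2 when mouse 4 was. Of 26 subunits of the constitutive proteasome 1 rose, Psma5 (0.69 ± 0.15), which did not pass without mouse 4 (0.60).

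Of 17 STAT, IRF and SOCS genes 3 were higher, among them Stat3 (1.35 ± 0.35) and Irf7 (1.07 ± 0.23). Stat3, which carries the interleukin-6 signal, stood at 5.50, 5.37 and 4.09 and then at 6.65, 6.14 and 6.23, with mouse 13 again the lowest. Stat3 did not pass without mouse 4 (1.20) or 6 (1.41), and Irf7 not without mouse 6 (0.98). The list had 1 member higher without mouse 4, 0 without mouse 6 and 5 without mouse 11.

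Several cytokine transcripts that the lectin is known to induce did not pass the threshold. Ifng stood at 3.34, 2.09 and -0.50 at 2 h and at 1.62, 2.04 and 2.32 at 5 h (0.35 ± 0.81), and Tnf changed by 0.83 ± 0.90. Without mouse 13 these changes were -0.72 and -0.35. Il6 changed by 0.85 ± 1.33, and by -1.09 without that liver. Il10 was not well above background on any 2 h array. None of 14 T cell cytokines was called with limma (1 had an unadjusted p below 0.05), and the list's median was 0.06, or -0.68 without mouse 13. The nearest to the threshold were Osm, of the interleukin-6 family (1.47 ± 0.55), and Ltb, lymphotoxin beta (0.63 ± 0.34).

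**Figure D3:**
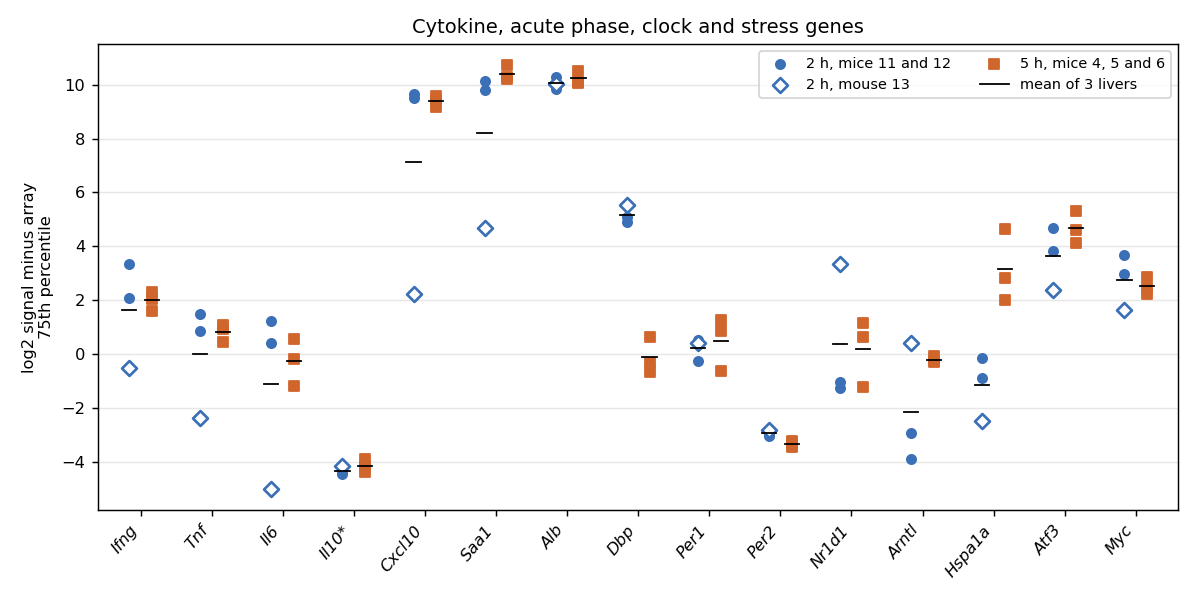
Levels (y axis, log2 signal minus the array's 75th percentile) of 15 panel genes in each of the 6 livers, by time after concanavalin A, with mouse 13 as an open diamond, bars at the mean of 3 livers and an asterisk on Il10, which was not well above background at 2 h. Mouse 13 lay below the other 2 h livers for Ifng, Tnf, Il6, Cxcl10 and Saa1 and above them for Nr1d1 and Arntl, while Dbp and Hspa1a separated the times in all livers.

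Chemokines of the CXCR3 and CC families had a median change of 2.01 over 16 genes, 0.38 without mouse 13, and 3 rose. Ccl8, a chemokine that attracts monocytes, stood at -1.59, -1.05 and -3.96 and then at 1.07, 0.93 and 0.44 (3.01 ± 0.61). Ccl24, an eotaxin, changed by 2.52 ± 0.66, not passing without mouse 4 (2.53), 5 (2.44) or 6 (2.58). Ccl6 changed by 1.13 ± 0.30, not passing without mouse 13 (0.78), 4 (1.16), 5 (0.98) or 6 (1.24). Cxcl10 was at 9.43, 9.56 and 9.15 at 5 h, within 1 unit of mice 11 and 12 (2.25 ± 1.87; -0.20 without mouse 13). The list had 1 member called without mouse 4, 5 or 6. Among 10 neutrophil-attracting CXC chemokines and their kin, none rose and Cxcl12, the stromal ligand of CXCR4, fell by 1.22 ± 0.22, from 5.15, 5.67 and 5.74 to 4.11, 4.68 and 4.11.

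Of 16 genes of the IL-1, IL-6 and IL-12 families and their receptors 3 rose, Il1r1 above all. Csf3, the granulocyte growth factor, changed by 1.87 ± 0.52 and Il33, an alarmin, by 1.84 ± 0.48. Both calls were lost without mouse 12 (1.98 and 1.93), 13 (1.29 and 1.31), 5 (1.62 and 1.50) or 6 (2.14 and 1.77), and that of Csf3 also without mouse 4 (1.84) and with slide as a block. Leaving out mouse 13 or 6 left 1 member higher, and leaving out mouse 5 left 1 higher and 1 lower. None of 17 NF-κB feedback genes was called with limma (1 had an unadjusted p below 0.05), and their median was 0.91, or -0.08 without mouse 13. Nfkbib, an inhibitor of NF-κB, changed by 1.07 ± 0.48 and Nfkb1 by 1.06 ± 0.53. Of 24 immediate early factors 1 rose and 1 fell, below the shares over all genes (6.58% higher and 9.51% lower). Fosl1, an AP-1 subunit, stood at -3.63, -4.37 and -4.69 and then at -1.29, -2.47 and -2.05 (2.29 ± 0.41). Jund, with no usable spot in mouse 4, changed by -0.62 ± 0.18, a call that held only without mouse 5 (-0.35 to -0.65 without any other liver) and not with slide as a block. Atf3 changed by 1.05 ± 0.52 and Myc by -0.24 ± 0.50.

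Of 27 acute phase proteins, which hepatocytes secrete in inflammation, 8 were higher and none lower, with a median of 1.18, or 0.58 without mouse 13. Apcs, serum amyloid P, stood at 3.52, 4.56 and 3.25 at 2 h and at 5.88, 5.62 and 5.49 at 5 h, with no overlap (1.89 ± 0.32). Serpina3n changed by 2.45 ± 0.71, not passing without mouse 4 (2.38), 5 (2.58) or 6 (2.38), or with slide as a block. Saa1 was at 10.72, 10.22 and 10.30 at 5 h, near mice 11 and 12, and was not called (2.21 ± 1.46; 0.45 without mouse 13). Leaving out mouse 13 left 4 members called, mouse 5 left 5, and mouse 4 or mouse 6 left 2.

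Of 16 genes of iron and haem handling 3 fell (9.51% of all genes were lower). Hjv, the BMP co-receptor that drives hepcidin, changed by -2.18 ± 0.54, Slc40a1, the iron exporter ferroportin, by -1.14 ± 0.27, and Bmp6 by -0.81 ± 0.24. None of these calls held without mouse 4 (-1.82, -0.84 and -0.62), 6 (-2.13, -1.18 and -0.87) or 13 (-1.57, -0.98 and -0.57), and Bmp6 also failed without mouse 11 (-0.89). None of 27 coagulation and complement genes was called with limma. An unadjusted p below 0.05 was found for 5, a smaller share than the 32.7% over all genes. C1ra changed by 0.38 ± 0.12 and C8b by 0.58 ± 0.20. Of 12 genes of tissue factor and fibrinolysis, Procr, the endothelial protein C receptor, rose by 2.10 ± 0.40, from 0.01, -0.34 and -1.65 to 1.59, 1.38 and 1.37.

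Heat shock chaperones of the cytosol moved as a pair, not as a list. Of 22, 3 were higher and 1 lower (6.58% and 9.51% over all genes), and the median was 0.14. Hspa1b stood at -1.43, -2.18 and -3.14 and then at 2.28, -0.16 and 0.56 (3.15 ± 0.67), the same order of livers as Hspa1a. Hspb8, a small heat shock protein, changed by 0.99 ± 0.23, a call lost without mouse 12 (0.93), 13 (0.86) or 4 (0.77). Cryab, another small heat shock protein, fell by 0.93 ± 0.19.

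Hspa1a and Hspa1b are near-identical neighbours, so their probes may each read both transcripts. Their promoters, the 200 bases before each RefSeq start on GRCm38.p6, are printed because they are almost identical too, at chr17:34972157-34972356 and chr17:34959239-34959438, both on the minus strand.
Hspa1a: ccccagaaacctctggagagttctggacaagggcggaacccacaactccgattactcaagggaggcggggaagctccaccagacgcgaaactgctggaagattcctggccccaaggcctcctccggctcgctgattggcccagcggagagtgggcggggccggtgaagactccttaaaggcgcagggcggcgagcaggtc
Hspa1b: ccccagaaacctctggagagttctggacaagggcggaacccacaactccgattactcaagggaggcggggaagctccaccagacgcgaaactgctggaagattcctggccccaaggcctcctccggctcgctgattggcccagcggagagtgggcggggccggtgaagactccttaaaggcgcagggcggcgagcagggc
The windows differ at 1 of 200 bases. Neither window held the spaced heat shock element searched for (GAA, TTC and GAA, each 2 bases apart). It was found in 21.7% of 23 windows of the chaperone list and 0.504% of windows of all tested genes.

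In the unfolded protein response, the programme that enlarges the folding capacity of the endoplasmic reticulum, 3 of 20 genes were higher and none lower, and 10 had an unadjusted p below 0.05 upward. Creld2, a luminal stress protein, stood at 4.49, 5.40 and 4.63 and then at 6.91, 6.57 and 6.52 (1.83 ± 0.39), a call lost without mouse 4 (1.71). Manf, a secreted stress factor, changed by 1.22 ± 0.29 and Hspa5, the chaperone BiP, by 0.99 ± 0.26. Both calls held only without mouse 12 (1.00 to 1.32 for Manf and 0.80 to 1.11 for Hspa5 without each of the others). The list had 1 member called without mouse 13, 0 without mouse 4, 1 without mouse 6 and 2 without mouse 11, and 5 with slide as a block.

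Upstream sequences of Hspa5 and Creld2 (150 bases, plus strand, chr2:34771940-34772089 and chr15:88819496-88819645) are printed with the endoplasmic reticulum stress element (CCAAT, any 9 bases and CCACG), or its reverse complement, in capitals. That of Chac1 (250 bases, plus strand, chr2:119350992-119351241) has the amino acid response motif TTGCATCA, read by ATF4 with C/EBP partners.
Hspa5: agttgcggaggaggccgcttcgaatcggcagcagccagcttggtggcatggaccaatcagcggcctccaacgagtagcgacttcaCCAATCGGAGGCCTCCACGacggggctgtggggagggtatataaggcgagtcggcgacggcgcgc
Creld2: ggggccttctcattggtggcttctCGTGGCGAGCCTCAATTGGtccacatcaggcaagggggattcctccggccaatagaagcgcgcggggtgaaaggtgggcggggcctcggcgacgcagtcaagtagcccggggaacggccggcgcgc
Chac1: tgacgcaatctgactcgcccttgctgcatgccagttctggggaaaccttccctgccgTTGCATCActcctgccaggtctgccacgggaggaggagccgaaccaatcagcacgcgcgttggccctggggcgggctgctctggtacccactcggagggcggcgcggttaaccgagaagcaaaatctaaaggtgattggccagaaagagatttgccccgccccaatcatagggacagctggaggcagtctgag
The stress element was found in 47.1% of 17 windows of the unfolded protein list and 0.142% of windows of all tested genes. The amino acid motif was found in 26.9% of 26 windows of its list and 0.703% of all.

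Of 28 genes of amino acid stress and tRNA charging 9 were higher and 1 lower. Wars, tryptophanyl-tRNA synthetase and an interferon-γ target, stood at 1.57, 1.70 and 0.84 and then at 3.62, 3.33 and 3.42 (2.09 ± 0.21), with every 5 h liver higher by more than 1 unit. Chac1, which degrades glutathione, stood at 0.49, 0.38 and 0.89 and then at 2.74, 1.21 and 2.37 (1.52 ± 0.37), a call lost without mouse 12 (1.41), 4 (1.20) or 6 (1.38). Mthfd2, of mitochondrial one-carbon metabolism, changed by 2.53 ± 0.75, and passed in only 1 of the 6 fits that left a liver out, that without mouse 12 (1.92 to 2.75 in the others). The lipoprotein receptor gene Vldlr fell by 1.70 ± 0.36, not passing without mouse 6 (-1.59). Without mouse 4 the list had 3 genes higher and without mouse 6 it had 2; without mouse 13 it had 6.

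Of 24 genes for making ribosomes 15 were higher and none lower, 21 had an unadjusted p below 0.05, and the median was 0.89 (0.78, 0.45 and 1.35 within slides 1, 2 and 3). Rrp12, of ribosomal subunit export, stood at -1.13, -1.52 and -2.21 and then at 0.22, -0.58 and 0.15 (1.55 ± 0.30). Nop2, an rRNA methyltransferase, stood at 3.69, 3.63 and 2.47 and then at 4.70, 4.48 and 4.86 (1.42 ± 0.28). In both genes the 5 h livers all lay above the 2 h livers. Noc4l changed by 1.26 ± 0.37, and passed only without mouse 11 (0.77 to 1.46 without each of the others) and not with slide as a block. The list's count was 7 without mouse 13 (median 0.66), 4 without mouse 4 and 5 without mouse 6. None of 28 oxidative phosphorylation genes was called with limma, and 0 had an unadjusted p below 0.05.

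The clock's activators, BMAL1 (Arntl) with CLOCK or NPAS2, drive Per, Cry, Nr1d and the PAR bZIP factors Dbp, Tef and Hlf through E-boxes, and the PAR bZIP factors act in turn on D-boxes, which NFIL3 occupies as a repressor. Of 10 genes of PAR bZIP output 4 were lower and 1 higher, with a median of -1.50 (-1.60, -1.42 and -1.84 within slides 1, 2 and 3). These counts were the same without any 1 of the 6 livers. Tef stood at 3.16, 2.89 and 2.56 and then at -0.31, 0.47 and 0.80 (fell by 2.55 ± 0.32), and Usp2, a ubiquitin protease under clock control, at -0.67, -1.55 and -1.58 and then at -3.90, -3.97 and -3.99 (fell by 2.68 ± 0.46). Nfil3 moved the other way, from 3.06, 2.58 and 2.80 to 4.47, 3.58 and 3.89 (1.17 ± 0.23). In these 3 genes mouse 13 lay within 1 unit of each of the other 2 h livers. The labels do not give the hour of day, so it cannot be told apart from the time after the lectin.

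Among 17 core clock genes 3 were lower and 1 higher (9.51% and 6.58% over all genes). Per3, a period gene, stood at -2.41, -2.62 and -2.57 at 2 h and was not well above background at 5 h. Nr1d2 (REV-ERB beta), a repressor of Arntl, stood at 1.28, 1.15 and 1.36 and then at 0.28, 0.12 and 0.22 (fell by 1.06 ± 0.18). Npas2 was not well above background at 2 h and was at least 1.09-fold higher at 5 h.

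The remaining clock genes of the panel did not pass. Per1 changed by 0.26 ± 0.49 and Per2 by -0.39 ± 0.15. Nr1d1 (REV-ERB alpha) stood at -1.24, -1.03 and 3.37 and then at 0.63, -1.21 and 1.17 (-0.17 ± 1.14), and was 1.34 higher without mouse 13, still not past the threshold. Arntl stood at -3.90, -2.91 and 0.40 and then at -0.05, -0.30 and -0.26 (1.93 ± 0.83); without mouse 13 it was 3.20 higher and passed. In mouse 13 Nr1d1 was thus the highest and Arntl above every other liver.

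The sequence before the Per3 start (250 bases, GRCm38.p6, chr4:151044666-151044915, minus strand) is printed because it holds 2 copies of the D-box TTANGTAA, in capitals.
Per3: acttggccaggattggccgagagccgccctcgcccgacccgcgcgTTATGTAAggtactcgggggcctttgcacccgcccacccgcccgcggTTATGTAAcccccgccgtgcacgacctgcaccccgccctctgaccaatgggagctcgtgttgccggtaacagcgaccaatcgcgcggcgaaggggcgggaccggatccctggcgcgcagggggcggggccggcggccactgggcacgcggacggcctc
The D-box was found in 1.67% of windows of the genes that fell and 1.63% of all tested genes.

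Metabolic genes of the liver fell in several lists. Of 23 genes of gluconeogenesis and glycogen 7 were lower and none higher (9.51% of all genes were lower). Besides Ppp1r3g and G6pc, Ppargc1a, a coactivator of fasting metabolism, fell by 1.28 ± 0.28, not passing without mouse 4 (-1.11) or 6 (-1.22). Of 25 genes of fatty acid oxidation 6 were lower. Ppara, the receptor that controls them, stood at 3.56, 3.03 and 3.72 and then at 1.97, 0.45 and 1.44 (fell by 2.15 ± 0.36). Acot4, a peroxisomal thioesterase, fell by 1.04 ± 0.22, lost without mouse 6 (-0.90), and Acot3 changed by -1.44 ± 0.42, passing only without mouse 12 (-1.15 to -1.59 without each of the others). Counts of lower genes in these lists were 4 and 2 without mouse 6, and the second was 3 without mouse 5.

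Of 26 genes of cholesterol and fatty acid synthesis 7 fell and none rose, with list medians of -1.19, -0.12 and -0.01 within slides 1, 2 and 3. Stard4, a sterol carrier, stood at 2.94, 3.23 and 2.88 and then at 1.88, 1.82 and 1.60 (fell by 1.25 ± 0.14). Every 5 h liver lay below every 2 h liver. Srebf1, which drives fatty acid synthesis, changed by -1.30 ± 0.34, lost without mouse 13 (-0.92), 4 (-1.35), 5 (-1.33) or 6 (-1.20), or with slide as a block, which left 4 genes lower and 1 higher. Leaving out mouse 4 left 2 members called, mouse 5 left 4, and mouse 6 or mouse 12 left 3.

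Of 16 genes of bile acid and organic anion transport and their control 5 fell and 1 rose. Abcg5 and Abcg8 encode the pair of subunits of the transporter that exports sterols into bile. Abcg8 stood at -0.30, -0.75 and -0.01 and then at -2.65, -2.47 and -2.08 (fell by 2.04 ± 0.26), and Abcg5 at 5.90, 5.81 and 5.94 and then at 4.79, 4.70 and 4.72 (fell by 1.14 ± 0.15). Both subunits were thus lower in all 5 h livers. Nr1h4, the bile acid receptor FXR, fell by 1.00 ± 0.19, from 4.56, 4.93 and 4.15 to 3.42, 3.73 and 3.50. Baat, which joins bile acids to amino acids, rose by 0.77 ± 0.16.

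Of 24 genes of cytochromes P450 and nuclear receptors 3 fell and 1 rose, near the shares over all genes (9.51% lower and 6.58% higher). Nr1i3 (CAR), a xenobiotic receptor, stood at 3.08, 3.05 and 2.82 and then at 1.58, 1.77 and 1.69 (fell by 1.30 ± 0.23), and Cyp2a5 fell by 1.31 ± 0.24. Cyp7b1, an oxysterol hydroxylase, rose by 1.76 ± 0.32, from 2.19, 2.96 and 1.90 to 3.98, 4.02 and 4.32. Rxra, the shared partner of these receptors, changed by -0.53 ± 0.15, passing only without mouse 11 (-0.48 to -0.56 without each of the others) and not with slide as a block. Of 25 genes of the urea cycle and amino acid catabolism 1 fell, and none did when mouse 4, 6 or 12 was left out. Of 23 plasma protein genes 1 fell, Serpina6, the corticosteroid carrier (-0.94 ± 0.20), which did not pass without mouse 4 (-0.85) or 6 (-0.88). Of 16 metallothionein and NRF2 genes 2 rose. Slc30a10, a manganese exporter, went from 0.36, 0.68 and 0.73 to 2.77, 1.59 and 2.09 (1.56 ± 0.28), and Keap1 (0.66 ± 0.18) was lost without mouse 11 (0.67), 13 (0.56), 4 (0.49) or 6 (0.63).

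Of 27 genes of death receptors, apoptosis and necroptosis 6 rose and none fell. Tnfrsf1a, the main receptor of tumour necrosis factor, stood at 3.72, 3.91 and 3.59 and then at 4.96, 4.84 and 4.82 (1.14 ± 0.13). Mlkl, the executioner of necroptosis, stood at 1.71, 1.62 and 0.03 and then at 3.18, 2.85 and 2.77 (1.82 ± 0.37). Bcl2l1, which blocks apoptosis, changed by 1.33 ± 0.34, lost without mouse 12 (1.36), 13 (1.24) or 4 (0.91). Without mouse 13 the list had 4 genes higher, without mouse 4 it had 3 and without mouse 12 it had 4. No gene of the p53 list (14 tested, 5 at an unadjusted p below 0.05) or of the cell cycle list (22 tested, 4 at an unadjusted p below 0.05) was called with limma. Over all genes 32.7% had such a p, so these counts are near or below that share. Cdkn1a, a cell cycle inhibitor, changed by 2.81 ± 0.88 and passed with slide as a block, as did Zmat3 of the same list (0.54 ± 0.18). The p53 list had 1 gene higher without mouse 11 or 5, and 1 higher and 1 lower without mouse 13. The replication gene Mcm2 changed by -0.74 ± 0.26.

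Transcripts that mark the sinusoidal endothelium were lower at 5 h. Of 27 tested 13 fell and none rose, with a median of -0.91 (-0.88, -0.32 and -1.29 within slides 1, 2 and 3). Gpr182, a chemokine-scavenging receptor of these cells, stood at 1.96, 2.08 and 3.81 and then at -1.18, -0.52 and -0.84 (fell by 3.47 ± 0.45). Kdr, the main VEGF receptor, stood at 1.56, 1.99 and 2.63 and then at -0.06, 0.65 and 0.14 (fell by 1.81 ± 0.27), and Ramp2, a co-receptor for adrenomedullin, at 2.00, 2.22 and 2.59 and then at -0.04, 1.05 and 0.47 (fell by 1.78 ± 0.26). In all 3, mouse 13 was the highest and the times did not overlap. The list's median was -0.55 without mouse 13, with 8 members lower; 5 were lower without mouse 4 and 6 without mouse 6.

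Endothelial adhesion and activation genes did not move one way, with 2 of 17 higher and 1 lower (3 lower with slide as a block). Over all genes 6.58% were higher and 9.51% lower, so these counts are near those shares. Angpt2, the vessel-destabilising ligand of TIE2, stood at -2.31, -2.44 and -1.57 and then at 0.38, -0.91 and 0.08 (1.96 ± 0.32). Edn1, endothelin-1, changed by 2.12 ± 0.62, lost without mouse 13 (1.36), 4 (2.43), 5 (1.91) or 6 (2.01), and Mcam by -0.96 ± 0.28, lost whichever 1 of the 6 livers was left out (-0.85 to -1.07).

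Of 27 stellate cell and matrix genes 3 rose and 5 fell (6.58% and 9.51% over all genes), and none of the 5 falls held without mouse 4, 6 or 13. Leaving out any of these mice gave 1 gene higher and none lower, and leaving out mouse 11 gave 3 higher and 8 lower. Timp1, an inhibitor of matrix proteases, stood at 1.59, 1.33 and 0.53 and then at 3.47, 3.24 and 2.68 (1.98 ± 0.32). Acta2, smooth muscle actin, changed by 0.97 ± 0.23 and Col4a1 by 1.25 ± 0.38, both lost without mouse 13 (0.93 and 0.75), 4 (1.03 and 1.25) or 6 (0.92 and 1.27). Acta2 was also lost without mouse 12 (0.80) and Col4a1 without mouse 5 (1.24). With slide as a block Col4a1 and Lrat did not pass. Lrat, which stores retinol in stellate cells, changed by -1.84 ± 0.53, Hgf by -1.22 ± 0.28 and Des by -0.86 ± 0.23. Without mouse 13 these were -1.40, -0.99 and -0.61, without mouse 4 -1.54, -1.0 and -0.70 and without mouse 6 -1.74, -1.16 and -0.91. Lrat and Des were also lost without mouse 12 (-2.05 and -0.93).

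Leukocyte transcripts moved in both directions (over all genes, 6.58% were higher and 9.51% lower). Of 19 neutrophil genes 5 rose, 15 had an unadjusted p below 0.05 upward, and the median was 1.58, or 1.03 without mouse 13. Chil3 stood at -0.18, -0.28 and -2.17 and then at 2.09, 1.58 and 1.26 (2.52 ± 0.53), a call lost without mouse 4 (2.30). Stfa2 changed by 2.15 ± 0.49 and Ngp, a granule protein, by 2.05 ± 0.57, both lost without mouse 13 (1.84 and 1.32), 4 (2.07 and 2.10) or 6 (2.09 and 2.09). Ngp was also lost without mouse 5 (1.98). The list had 1 gene called without mouse 13, 0 without mouse 4, 1 without mouse 6 and 3 without mouse 5, and 3 with slide as a block.

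B cell genes were on the lower side, with 5 of 21 lower and a median of -0.63. Fcmr, the IgM receptor, stood at -0.95, -0.68 and 0.26 and then at -2.84, -2.24 and -2.91 (fell by 2.21 ± 0.30). Fcrla was at least 1.98-fold lower and not well above background at 5 h; its call was lost without mouse 4 or 6. Bank1 changed by -1.45 ± 0.40, lost without mouse 13 (-0.90), 4 (-1.29) or 6 (-1.42), or with slide as a block. Leaving out mouse 13 left 3 genes lower, mouse 4 or mouse 6 left 2, and without mouse 11 there were 9.

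Of 19 dendritic cell and MHC class II genes 3 fell and 1 rose. H2-Ab1, a class II chain, stood at 4.12, 3.72 and 4.26 and then at 3.37, 3.37 and 3.24 (fell by 0.71 ± 0.15), lost without mouse 6 (-0.67). Ciita, which switches class II genes on, changed the other way (0.74 ± 0.19), lost without mouse 12 (0.76), 13 (0.67), 4 (0.64) or 6 (0.70). Leaving out mouse 13 or 4 left 1 member lower and none higher, mouse 6 left none, and mouse 12 left 4 lower. Of 10 NK and cytotoxic genes 2 rose, Klrk1, an activating receptor (0.60 ± 0.12), and Gzmb, granzyme B (2.21 ± 0.49), lost without mouse 4 (1.98) or 6 (2.25). Of 20 T cell lineage genes 2 rose and 2 fell, counts near the shares over all genes (6.58% higher and 9.51% lower). Cd8a, the co-receptor of cytotoxic T cells, changed by 1.13 ± 0.27, lost without mouse 13 (0.96) or 6 (0.89). The falls were of Cd7 (-0.70 ± 0.19), lost without mouse 13 (-0.52), 4 (-0.82), 5 (-0.68) or 6 (-0.61) and with slide as a block, and of Cd2 (-0.65 ± 0.18), lost whichever 1 of the livers was left out (-0.54 to -0.72). No member was called without mouse 6. Of 23 Kupffer cell and macrophage genes 1 rose, Itgam (1.12 ± 0.33), which passed only without mouse 5 (0.94 to 1.24 without each of the others) and not with slide as a block. None of 14 T cell activation genes (1 at an unadjusted p below 0.05) or 11 erythroid genes (1 at an unadjusted p below 0.05) was called with limma.

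**Figure D4:**
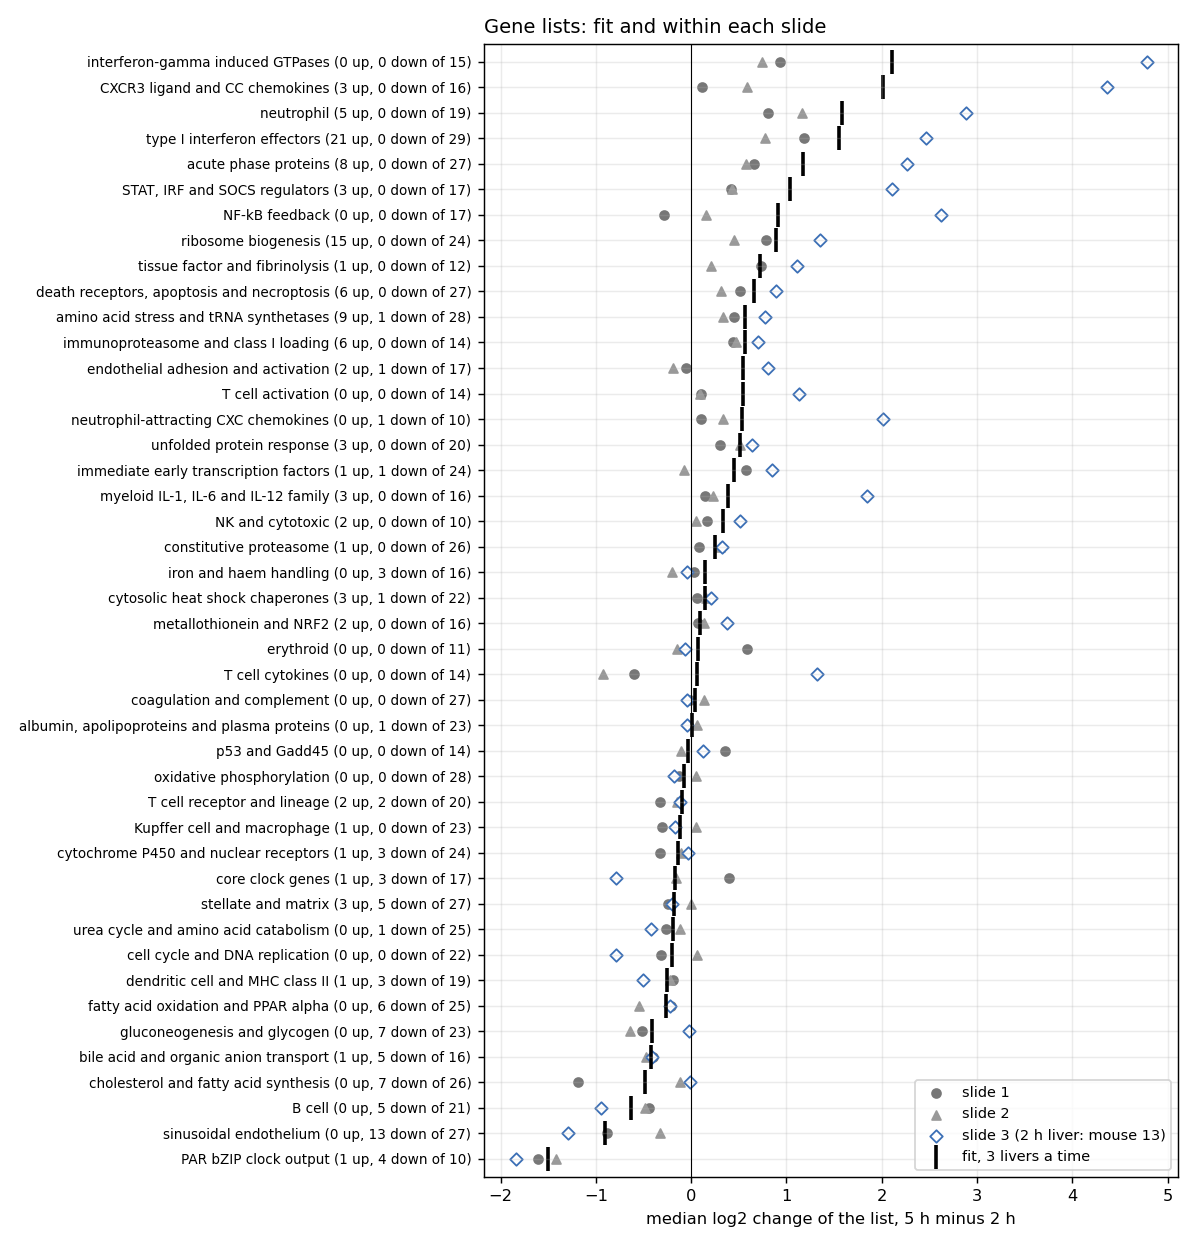
Median change from 2 h to 5 h (x axis, log2) of the tested members of each of 44 gene lists, from the fit over all slides and within each of the 3 slides, which hold 1 liver of each time. The interferon-γ induced GTPases ran from 0.75 to 4.78 between slides, slide 3 being that of mouse 13, while PAR bZIP clock output ran from -1.42 to -1.84.

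Promoters of the genes that rose and fell were compared over the same 300-base window (250 before to 50 after the start). RefSeq windows were matched for 740 of the 937 genes that rose and 1070 of the 1354 that fell, some with several starts. The interferon-stimulated response element was in 5.41% of windows of genes that rose, 1.94% of those that fell and 3.17% of those not called. The E-box CACGTG was in 12.3%, 9.31% and 9.28%. The gamma-activated site TTCNNNGAA was in 8.07%, 6.81% and 7.03%, and the NF-κB site (GGGA, any 2 bases and TTCC) in 1.66%, 0.625% and 1.58%. These shares are descriptions and were not tested.

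Livers of mice given stem cells gave the same times in other animals on the same slides. Their change shares no liver with the comparison above, but both changes were tested in the same fit, with the same spread for each gene. A gene with a small spread passes more easily in both, so the shared calls below are not independent support. In the livers with stem cells, 1263 genes were higher at 5 h (8.87%) and 1436 lower (10.1%). Of the genes that rose with concanavalin A alone, 72.3% rose there too, which is 53.6% of the genes that rose there. Of the genes that fell, 59.5% fell there too, which is 56.1% of theirs. Only 2 genes were called in opposite directions. Across genes, which are not independent replicates, the 2 changes had a Pearson correlation of 0.80. Without mice 10 and 13 it was 0.68, with 870 genes higher and 1046 lower with concanavalin A alone, 1475 and 1389 with stem cells, and 6 called in opposite directions. Shared genes were then 72.1% of those that rose with concanavalin A alone and 42.5% of those that rose with stem cells, and 57.8% and 43.6% for the falls. Dbp, G6pc and Cpne8 changed by -6.67, -7.72 and 3.65 with stem cells.

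Some leading genes had other values there. Hspa1a changed by 1.62 with stem cells and was not called, against 4.31 without; the difference of the 2 time effects was -2.69 ± 1.15 and did not pass (adjusted p = 0.999). The median of the unfolded protein response was -0.10 with stem cells, against 0.51 without. Creld2 changed by 0.26, Manf by 0.48 and Hspa5 by 0.29 in those livers. The treated livers were given their cells at 0 h for the 2 h livers and at 3 h for the 5 h livers, so time and schedule cannot be told apart there. Tested directly, the time effect differed between the settings for 2 of 14235 genes (0.014%), with 667 at an unadjusted p below 0.05. Of these 2, Tnfrsf23 was not well above background at 2 h with stem cells, and its difference changed sign with normexp (3.12 to -0.14).

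**Figure D5:**
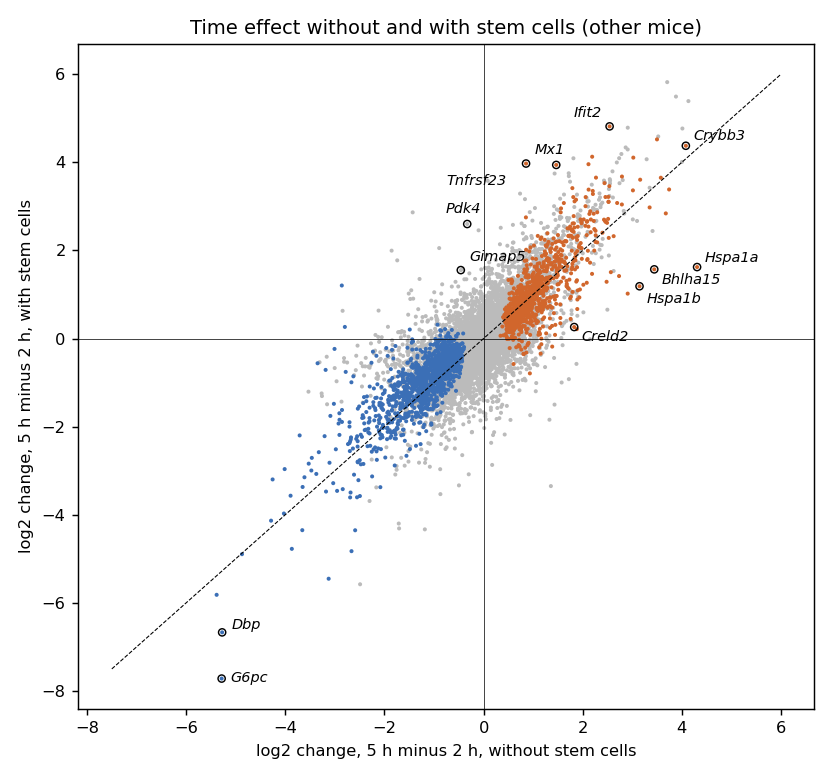
Change from 2 h to 5 h in livers given concanavalin A alone (x axis, log2) against the change in livers given stem cells as well (y axis, log2), 1 point per gene, coloured where the gene passed the threshold with concanavalin A alone; the dashed line marks equal change. The correlation across genes was 0.80, and the named points include Hspa1a, below the line, and Gimap5 and Tnfrsf23, whose time effects differed past the threshold.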

How the data were processed

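Whole liver RNA was measured on single-colour Agilent mouse arrays. Intensity values are the background-subtracted processed signals that the authors deposited as scanner output, written by the scanner software Feature Extraction (version 10.5.1.1, Agilent, per the file headers). The deposited value table held the same signals (largest difference 0) and served as an alternative. Control spots and outlier spots were left out, log2 was taken, and each array's 75th percentile was subtracted. A probe entered the fit if 3 or more of 12 liver arrays had it well above background, and the brightest probe stood for a gene. Of 41174 probes, 23483 were named by accession, 6678 by symbol, 2887 by an older symbol and 812 by the design's name through RefSeq tables, and 7314 had no name.

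A linear model with 4 group means over 12 livers was fitted in limma 3.58.1 (R 4.3.3) and adjusted by the Benjamini-Hochberg method over 14235 genes. The script was tested on simulated data. Where every array of a time left a gene undetected over background, its fold is a lower bound: on each such array the gene was set to the dimmest spot well above background, or to its own signal if higher, and the other time's mean was divided by the mean of these. The number of arrays limits the precision. The labels number the mice but do not say how the animals were kept or grouped, and p-values reflect how much these samples vary, which may be technical.

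The comparison, its gene lists and the alternatives were chosen with earlier results of these data known. Genes were named by rule: the 15 largest rises and the 15 largest falls among called genes with no overlap between the times, the 3 leading called members of each list in each direction (or the 2 with the smallest p where none was called), and a panel of 16 genes, of which Pck1 did not pass the filter. Promoter windows came from RefSeq (GRCm38.p6). Alternatives were leaving out each liver, the choice of livers, slide as a block, background correction, scaling, probe filter, array weights and the mean of a gene's probes; the fits to 6 livers with slide as a block and to 5 livers without mouse 13 were chosen after seeing the data. Hepatic inflammatory cells entered no test. The values of some genes that the rule names are not reported here.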

Additional observations from a re-analysis of the deposited data

Results flagged for a closer look

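For 2 genes the time effect differed between livers with and without stem cells by limma's test of the difference. With stem cells, the hour at which the cells were given differed between the times as well. Tnfrsf23, which binds the ligand TRAIL without a death signal, differed by 3.12 ± 0.33 (treated minus alone, adjusted p = 0.0329). It stood at -3.86, -3.60 and -4.21 at 2 h and at -2.59, -3.41 and -3.09 at 5 h with concanavalin A alone. With stem cells it stood at -6.51, -6.29 and -6.54 at 2 h and at -2.53, -2.70 and -2.19 at 5 h. The treated 2 h values were not well above background, so the size of this difference is uncertain, and with normexp background correction it was -0.14. Gimap5, a lymphocyte GTPase, differed by 2.01 ± 0.23 (adjusted p = 0.0342). Its levels with concanavalin A alone were -0.01, -0.14 and 0.40 and then -0.42, -0.38 and -0.33, and with stem cells -0.17, -0.09 and 0.19 and then 1.69, 1.48 and 1.41. Of its 2 probes 1 had the opposite sign without stem cells, and averaging both probes gave a difference of 1.48, which did not pass. How many genes differ in this way under other settings is given in the next section.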

How the results depend on the processing

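Against 937 genes higher and 1354 lower, leaving out 1 of the 6 livers gave 357 to 923 higher and 550 to 1469 lower. A fit to the 6 livers alone gave 108 and 244, and to 5 livers without mouse 13, chosen after seeing the data, 282 and 391. With only the 6 livers and slide as a block, also chosen after seeing the data, limma called 0 and 0, with 3530 genes at an unadjusted p below 0.05. No filter on dim probes gave 563 and 825, normexp background correction 149 and 172, and a change of at least 1 as well 405 and 682. Slide as a block over all 12 livers gave 993 and 1291, within 1.5 times the counts above, and 1979 of the 2291 genes were called in both. The mouse numbers are not shared between the times, so slide, which holds 1 liver of each group, is the pairing that could be fitted. The count of genes whose time effect differed with stem cells was 2, and 0 to 24 without 1 liver (24 without mouse 13). It was 73 without mice 10 and 13, 1 for the mean of a gene's probes, and by limma 0 with slide as a block (767 at an unadjusted p below 0.05), 0 without the filter (754) and 0 with normexp (230), where the difference of Tnfrsf23 turned to -0.14. The cause of these shifts was not tested. No named gene that was called changed direction in any setting. Of 122 called genes among those named, 36 were lost without mouse 13, 53 without mouse 4 and 55 without mouse 6. In the fit to the 6 livers alone 85 were lost, and with normexp 76. All 122 were lost with only the 6 livers and slide as a block. Where no array of a time was well above background, the change with concanavalin A alone is given as a bound. Genes with only 1 or 2 arrays of a time well above background have plain changes that rest partly on values near the floor. Among these are Ppp1r3g, Pcdh12, Fosl1, Csf3 and Mthfd2. No depth is known beyond signal over background.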

Other observations

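Of the hepatic inflammatory cells, 2 samples were taken 5 h after concanavalin A. Their treatment label names the lectin alone, while their source label also mentions stem cells, so whether these mice received them is unclear. No comparison with whole liver was tested. Crybb3 stood at -4.44 and -4.52, Syt12 at -3.98 and -4.46, Cpne8 at -3.32 and -4.62 and Arrdc4 at -1.84 and -1.97. Ifng stood at 6.96 and 7.37 and Myc at 6.53 and 6.06. Hspa1a stood at 2.31 and 0.52, and Dbp at 0.95 and 1.17.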
